A study of Mus musculus with 16 samples.

Results

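The Notch ligands Dll1, Dll4, Jag1 and Jag2 and the Hes/Hey genes Hes1, Hes5, Hes6, Hes7, Hey1 and Hey2 were followed through the ChIP-seq peak lists of PCGF5 and of 2 Polycomb histone marks in mouse embryonic stem cells (mESCs, ES) and in neural precursor cells (NPCs). These are 10 of the 22232 protein-coding genes with an annotated start site. They were chosen by name, not by a peak filter, as Notch ligands and Hes and Hey family members. Earlier results of these data were known at the time. The set is not complete, and Dll3, Hes2, Hes3 and Heyl were counted among the other Notch pathway genes. A peak was assigned to a start site when its centre lay within 2500 bp of it, and to a gene body when it overlapped the annotated gene by at least 1 bp. Each of the 10 genes had 1 protein-coding start site. All coordinates are those of mm9 (NCBIM37), with gene models of GENCODE M1.

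Peak lists were analysed for 10 of 16 libraries, and the 6 input libraries were not used here. H2AK119ub1, a monoubiquitinated form of histone H2A, and H3K27me3, a trimethylated form of histone H3, were each profiled in wild type ES, PCGF5-depleted ES, wild type NPCs and PCGF5-depleted NPCs. The ES line is labelled 46C and carries a GFP reporter of Sox1, a gene of early neural fate. ES were grown on a layer of mouse fibroblasts with leukaemia inhibitory factor and the inhibitors CHIR99021 and PD0325901, and NPCs, made without these factors in a medium with serum replacement, were collected at day 6 of neural differentiation in suspension. The depleted cells are labelled shPCGF5, that is, with a short hairpin RNA against Pcgf5. The study made such lines with a lentivirus, puromycin selection and picking of clones, and which clone was profiled is not given in the sources used here. PCGF5 itself was precipitated with an anti-Flag antibody from wild type ES and NPCs whose endogenous Pcgf5 gene carried a Flag tag. Each group held 1 library, so no value below has a replicate error, no test of a condition could be made, and the depleted cells cannot be told apart from the particular line that was grown. The lists held 3845 to 14759 peaks for the histone marks, 653 for Flag-PCGF5 in ES and 12013 in NPCs, and gave no read totals, so sequencing depth is unknown. A peak list records neither expression nor PCGF5 protein, so the identity of the cells and the depletion could not be checked with it, and a missing peak does not show that a mark was absent.

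Notch signalling passes between touching cells. A ligand of the Delta-like or Jagged family on a sending cell engages a Notch receptor, whose intracellular part is released by proteases, enters the nucleus and joins the DNA-binding protein RBPJ at its target genes. The best known targets are the Hes and Hey genes, which encode basic helix-loop-helix repressors. In the embryonic nervous system they hold progenitors back from becoming neurons. Polycomb repressive complex 1, of which PCGF5 is a subunit in one variant form, places H2AK119ub1, and Polycomb repressive complex 2 places H3K27me3. Both marks are found over the CpG-rich start sites of many developmental genes.

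The sequence before the start site is shown for the 5 genes on which the comparisons below turn or which held letters of the RBPJ motif. These are Dll4, the gene with both marks in all 4 kinds of cells, Hes1, the gene without a peak, and Hes5, Hes7 and Hey2. Each line gives the 300 bases upstream of the start site in the direction of the gene, and capitals mark TGGGAA or its reverse complement TTCCCA. The windows are chr2:119151220-119151519 (plus strand) for Dll4, chr16:30065126-30065425 (plus strand) for Hes1, chr4:154334732-154335031 (plus strand) for Hes5, chr11:68933606-68933905 (plus strand) for Hes7 and chr10:30562608-30562907 (minus strand) for Hey2. None holds coding sequence, and those of Dll4, Hes5 and Hes7 overlap exons of non-coding transcripts.
Dll4: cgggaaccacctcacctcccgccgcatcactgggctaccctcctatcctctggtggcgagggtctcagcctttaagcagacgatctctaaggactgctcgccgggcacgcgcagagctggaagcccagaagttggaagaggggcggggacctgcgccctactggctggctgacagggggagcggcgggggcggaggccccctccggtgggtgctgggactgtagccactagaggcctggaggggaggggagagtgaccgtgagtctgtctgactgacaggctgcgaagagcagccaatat
Hes1: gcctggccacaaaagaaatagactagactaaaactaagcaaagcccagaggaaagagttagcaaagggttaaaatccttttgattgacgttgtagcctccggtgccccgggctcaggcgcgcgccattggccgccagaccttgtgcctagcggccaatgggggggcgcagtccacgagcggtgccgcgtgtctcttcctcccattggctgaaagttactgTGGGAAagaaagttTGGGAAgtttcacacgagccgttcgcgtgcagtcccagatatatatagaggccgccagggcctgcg
Hes5: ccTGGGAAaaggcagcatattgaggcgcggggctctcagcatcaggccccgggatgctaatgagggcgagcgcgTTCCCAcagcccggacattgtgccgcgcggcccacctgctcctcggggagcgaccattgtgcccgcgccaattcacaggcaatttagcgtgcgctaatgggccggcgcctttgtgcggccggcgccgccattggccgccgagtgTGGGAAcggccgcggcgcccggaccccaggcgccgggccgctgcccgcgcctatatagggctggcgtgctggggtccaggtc
Hes7: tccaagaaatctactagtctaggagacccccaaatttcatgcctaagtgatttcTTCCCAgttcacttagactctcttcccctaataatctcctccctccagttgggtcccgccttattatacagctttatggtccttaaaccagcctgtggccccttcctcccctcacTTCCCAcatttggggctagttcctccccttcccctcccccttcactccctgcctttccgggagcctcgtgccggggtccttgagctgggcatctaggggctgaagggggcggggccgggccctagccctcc
Hey2: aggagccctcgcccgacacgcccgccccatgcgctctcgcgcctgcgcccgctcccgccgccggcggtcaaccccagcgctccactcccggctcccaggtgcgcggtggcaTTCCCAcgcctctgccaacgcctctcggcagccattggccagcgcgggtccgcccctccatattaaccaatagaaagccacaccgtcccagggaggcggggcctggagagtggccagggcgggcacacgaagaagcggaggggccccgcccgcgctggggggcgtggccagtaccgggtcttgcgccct

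The letters TGGGAA, searched on both strands, occurred in these 300 bases in 4 of the 10 genes, compared with 24.8% of all protein-coding genes. Hes5 held 3 matches, Hes1 and Hes7 held 2 each and Hey2 held 1, so 3 of the 10 genes held 2 or more, compared with 3.82% of all genes. In Hes1 the matches began 80 and 66 bases before the start site and lay on the same strand. In Hes5 they began 298, 226 and 82 bases before it. None of the 4 ligand genes held a match. CACGTG, the E-box, was found in 0 of the 10 genes and in 7.40% of all genes, and CACNAG, the N-box that Hes proteins bind, in 5 of the 10 and in 41.1% of all genes. A match is a run of letters and no evidence of a bound factor.

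Most of these start sites were rich in GC and CpG. Within 500 bp of the start site the GC content of the 10 genes ranged from 45.8% in Hes1 to 77.4% in Jag2, with a median of 64.7%, compared with 54.8% over all genes. The ratio of observed to expected CpG had a median of 0.799 in the 10 genes and 0.555 in all genes, with the lowest value, 0.427, in Hes7 and the highest, 1.07, in Jag2. Hes1, at the 20.8th percentile of GC content, and Hes7, at the 43.0th, were the only 2 of the 10 below the median of all genes.

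H3K27me3 was listed at the start sites of most of the 10 genes. A peak was present at 7 of 10 in wild type ES (13.4% of all genes), at 8 in PCGF5-depleted ES (12.9%), at 8 in wild type NPCs (15.7%) and at 8 in PCGF5-depleted NPCs (15.4%). H2AK119ub1 was listed at fewer, namely at 4 in wild type ES (6.69% of all genes), 3 in PCGF5-depleted ES (5.96%), 1 in wild type NPCs (4.98%) and 2 in PCGF5-depleted NPCs (4.17%). Flag-PCGF5 had a start-site peak at 0 of the 10 genes in ES (0.787% of all genes) and at 1, Hey1, in NPCs (13.7%). In each of the 8 histone lists the share of the 10 genes was larger than that of all genes. For H2AK119ub1 in NPCs this rested on 1 gene in wild type and 2 genes in PCGF5-depleted cells. With 10 genes, these counts and the Flag-PCGF5 counts of 0 and 1 cannot be told apart from the shares of all genes. With 1 library per list, all of this remains a description.

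**Figure D1:**
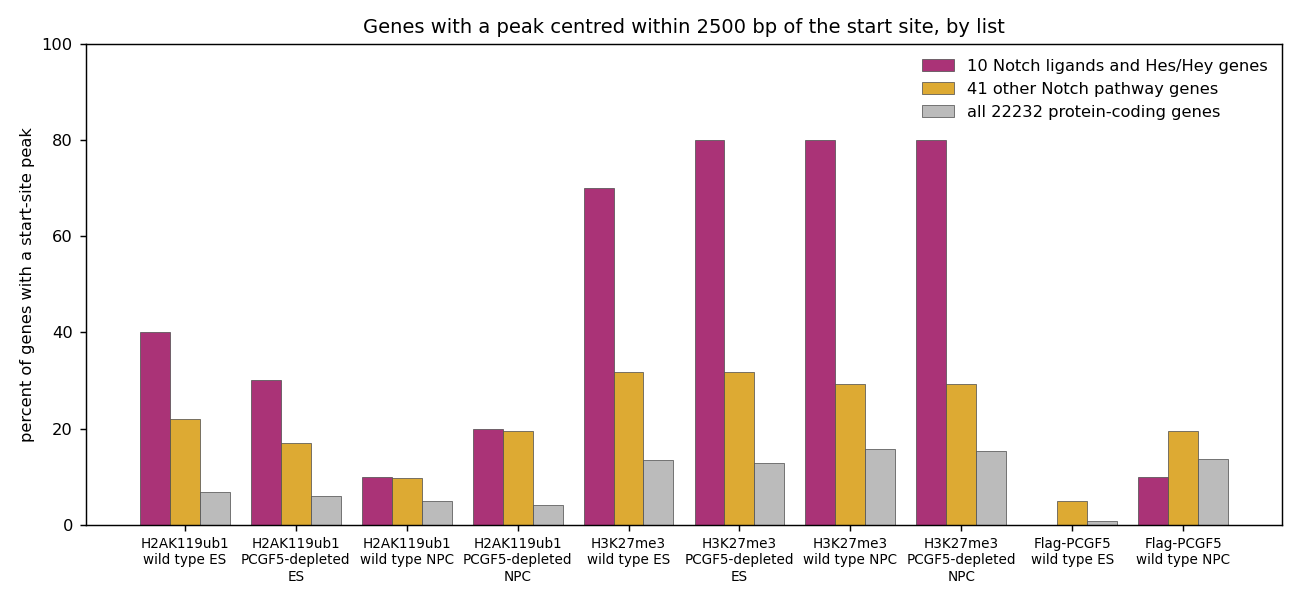
Percent of genes (y axis) with a peak centred within 2500 bp of a start site, in each of the 10 peak lists (x axis), for the 10 Notch ligands and Hes/Hey genes, 41 other Notch pathway genes and all 22232 protein-coding genes. The bars of the 10 genes are the tallest in all 4 H3K27me3 lists, where they stand for 7 or 8 genes, and the bar for Flag-PCGF5 in ES is at 0.

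Over gene bodies the counts were similar. H3K27me3 touched the bodies of 7 of the 10 genes in wild type ES (15.9% of all genes), 8 in PCGF5-depleted ES (14.7%), 8 in wild type NPCs (16.2%) and 8 in PCGF5-depleted NPCs (15.7%). For H2AK119ub1 the counts were 3 (9.95%), 4 (8.86%), 1 (5.29%) and 2 (5.34%) in the same order. Flag-PCGF5 touched 0 bodies in ES (1.39%) and 2 in NPCs (21.0%), those of Hey1 and Jag1.

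The Delta-like ligands carried the most H2AK119ub1 of the 10 genes. Dll4 encodes the ligand that is best known from blood vessels and is also expressed in neural progenitors. At its start site H2AK119ub1 peaks covered 2503 bp in wild type ES (4 peaks, highest fold enrichment 8.24), 2169 bp in PCGF5-depleted ES (4 peaks, 5.87), 1524 bp in wild type NPCs (5 peaks, 4.36) and 283 bp in PCGF5-depleted NPCs (2 peaks, 3.93). Fold enrichment here is that of a peak over its local background, and cannot be compared between libraries. Dll4 was the only one of the 10 genes with an H2AK119ub1 peak in all 4 lists, and the PCGF5-depleted NPC list covered the least. The log2 ratio of covered base pairs, with 100 bp added to both sides, was -0.20 between PCGF5-depleted and wild type ES and -2.08 between PCGF5-depleted and wild type NPCs. The PCGF5-depleted NPC list was also the shortest, with 1.12 Mb covered genome-wide compared with 2.33 Mb in wild type NPCs, a log2 ratio of -1.05, and the part of list length in the difference at Dll4 was not tested.

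H3K27me3 at Dll4 was broader in NPCs than in ES. It covered 2188 bp in wild type ES (2 peaks), 1607 bp in PCGF5-depleted ES (3 peaks), 5307 bp in wild type NPCs (2 peaks) and 4336 bp in PCGF5-depleted NPCs (3 peaks). The NPC values were the largest and the third largest of the 10 genes in any list. In wild type NPCs 1 peak ran from 1979 bp upstream to 909 bp downstream of the start site with a fold of 9.26, and in PCGF5-depleted NPCs 1 peak ran from 1834 bp upstream to 900 bp downstream with a fold of 8.10. Both ranked high in their own lists, at the 96.9th and 98.7th percentile of score. The log2 ratio of NPC to ES was 1.24 in wild type and 1.38 in PCGF5-depleted cells, close to that of the covered base pairs of the whole lists, 1.16 and 1.09. The 300 bases shown above lay entirely under an H3K27me3 peak in 3 of the 4 lists, all but that of PCGF5-depleted ES.

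Dll1 encodes the Delta-like ligand that newborn neurons present to their progenitor neighbours. Its H2AK119ub1 peaks covered 2215 bp in wild type ES (4 peaks) and 1961 bp in PCGF5-depleted ES (4 peaks), and no peak was listed in either NPC library, where the nearest one lay 159840 bp (wild type) and 180765 bp (PCGF5-depleted) away. The ES lists overlapped over 1696 bp, which is 76.6% of the wild type and 86.5% of the PCGF5-depleted base pairs. H3K27me3 at Dll1 remained listed in all 4 libraries, with 2130 bp in wild type ES, 1279 bp in PCGF5-depleted ES, 1810 bp in wild type NPCs and 2263 bp in PCGF5-depleted NPCs. Its log2 ratio was -0.69 between PCGF5-depleted and wild type ES and 0.31 between the NPC lists, within 2-fold in both. In every list the H3K27me3 peaks of Dll1 stood on both sides of the start site and none covered its first base.

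The Jagged ligands differed from the Delta-like ligands and from each other. Jag2 encodes a Jagged ligand with roles in limb and inner ear. It had 365 bp under 2 H2AK119ub1 peaks in wild type ES and none in the other 3 lists. These peaks lay 1597 to 2199 bp downstream of the start site. Over the whole gene body, H2AK119ub1 in ES had 10 peaks and 2648 bp in wild type and 1 peak and 261 bp in PCGF5-depleted cells, and H3K27me3 had 11 peaks and 4070 bp in the former and 5 peaks and 1470 bp in the latter. At the start site H3K27me3 covered 903 bp in wild type ES, 282 bp in PCGF5-depleted ES, 1761 bp in wild type NPCs and 378 bp in PCGF5-depleted NPCs. Jag2 was thus lower in the PCGF5-depleted list at both stages, with log2 ratios of -1.39 and -1.96, and was the only one of the 10 genes more than 2-fold lower in both. All start-site peaks of Jag2 lay downstream of the start site. With a window of 1000 bp no Jag2 peak of either mark was counted in the PCGF5-depleted lists. The H3K27me3 peak in PCGF5-depleted NPCs, 827 to 1204 bp downstream, reached into that window, but its centre lay just outside it.

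Jag1, which encodes the ligand mutated in Alagille syndrome, had no H2AK119ub1 peak. Its nearest one lay 498649 bp away in PCGF5-depleted NPCs, the closest of the 4 lists. H3K27me3 was listed at its start site only in the PCGF5-depleted libraries, with 579 bp in ES (2 peaks, fold up to 4.68) and 693 bp in NPCs (1 peak, fold 4.91), compared with 0 bp in both wild type lists, whose nearest peaks lay 1057241 and 729178 bp away. The PCGF5-depleted peaks overlapped by 240 bp, between 747 and 986 bp downstream of the start site. The ES peaks ranked low, at most at the 35.9th percentile of score, and the NPC peak stood at the 68.9th. A Flag-PCGF5 peak of 200 bp lay in the body of Jag1 in NPCs, 20570 bp from the start site.

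**Figure D2:**
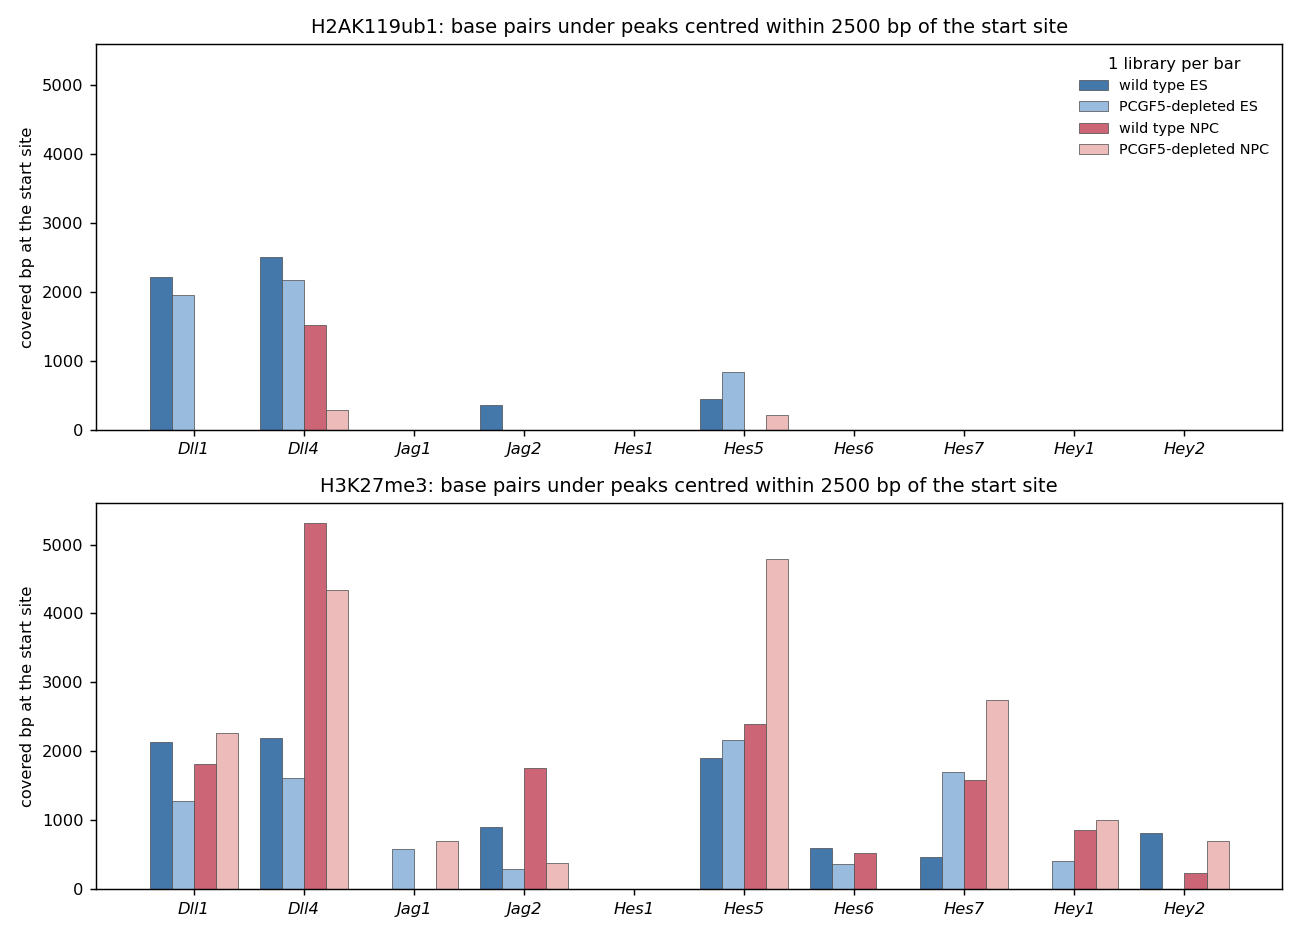
Base pairs under peaks centred within 2500 bp of the start site (y axis) for each of the 10 genes (x axis), with H2AK119ub1 in the upper and H3K27me3 in the lower panel, and 1 bar for each library (wild type and PCGF5-depleted, ES and NPCs). H2AK119ub1 bars stand at Dll1, Dll4, Jag2 and Hes5 alone, and Hes1 has no bar in either panel.

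Hes1 and Hes5 are the main effectors of Notch in neural progenitors. Hes1 had no peak at its start site or over its body in any of the 10 lists. The nearest histone-mark peak lay 55754 bp from the start site, for H3K27me3 in wild type NPCs, and the nearest Flag-PCGF5 peak 6531 bp away in NPCs. No other one of the 10 genes lacked peaks in all 4 H3K27me3 lists.

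Hes5 carried H3K27me3 in all 4 lists. It covered 1899 bp in wild type ES (5 peaks), 2161 bp in PCGF5-depleted ES (3 peaks), 2389 bp in wild type NPCs (4 peaks) and 4795 bp in PCGF5-depleted NPCs (1 peak). In PCGF5-depleted NPCs a single peak ran from 2046 bp upstream to 2748 bp downstream of the start site, over the whole 1449 bp gene, with a fold of 6.88 and a score at the 95.3rd percentile of its list. It included all 2389 bp of the 4 wild type NPC peaks. The log2 ratio of PCGF5-depleted to wild type NPCs was 0.98, just under 2-fold, while the covered base pairs of the whole list had a log2 ratio of -0.24. The neighbouring gene Pank4 has its start site 3200 bp from that of Hes5, beyond the end of this peak.

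H2AK119ub1 at Hes5 was narrow. It covered 444 bp in wild type ES, 835 bp in PCGF5-depleted ES, 0 bp in wild type NPCs and 219 bp in PCGF5-depleted NPCs. The wild type ES peak, 2060 to 2503 bp downstream, was among the weakest of its list, at the 0.196th percentile of score, and had a q-value above 0.05. It lay beyond the end of the Hes5 gene and was assigned to Hes5 by distance alone. With q-values of at most 0.05, H2AK119ub1 was at 3 of the 10 start sites in wild type ES. It was then at least 2-fold lower at 2 genes in wild type NPCs against ES. The PCGF5-depleted NPC peak lay 296 to 514 bp downstream of the start site with a fold of 6.65, inside the wide H3K27me3 peak, and accounts for the only log2 ratio above 1 of H2AK119ub1 among the 10 genes, 1.67, which was below 2-fold when 300 bp were added in place of 100 bp.

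Hes7, the oscillating repressor of the segmentation clock that forms the somites, had H3K27me3 in all 4 lists and no H2AK119ub1. H3K27me3 covered 469 bp in wild type ES (2 peaks), 1693 bp in PCGF5-depleted ES (5 peaks), 1584 bp in wild type NPCs (3 peaks) and 2749 bp in PCGF5-depleted NPCs (3 peaks). The PCGF5-depleted list covered more than the wild type list at both stages, with log2 ratios of 1.66 in ES and 0.76 in NPCs. The start base itself lay under a peak in both PCGF5-depleted lists and in neither wild type list. In wild type ES the peaks stood at least 2084 bp away from it on either side. The broadest, of 2106 bp in PCGF5-depleted NPCs, had a fold of 8.70 and stood at the 98.5th percentile of score, and all 300 bases of the Hes7 sequence above lay under it.

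Hes6, which encodes a family member that promotes neuronal differentiation and counters Hes1, had small H3K27me3 peaks. They covered 591 bp in wild type ES, 356 bp in PCGF5-depleted ES and 522 bp in wild type NPCs, and none was listed in PCGF5-depleted NPCs, a log2 ratio of -2.64 to wild type NPCs. The ES peaks of the wild type and PCGF5-depleted lists overlapped by 24 bp. No H2AK119ub1 peak was listed at Hes6.

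Hey1 and Hey2 encode repressors related to the Hes proteins, with known roles in the heart and vessels. Hey1 had no H3K27me3 in wild type ES, 402 bp in PCGF5-depleted ES, 861 bp in wild type NPCs and 1000 bp in PCGF5-depleted NPCs. It was therefore higher in NPCs than in ES with and without depletion, with log2 ratios of 3.26 in wild type and 1.13 in PCGF5-depleted cells. In wild type NPCs Hey1 was also the only one of the 10 genes with a Flag-PCGF5 peak at the start site. This peak was 301 bp wide and lay 2155 to 2455 bp downstream. Its score stood at the 91.2nd percentile of its list, but its fold was 1.09, below the median of 2.22 in that list. No Flag-PCGF5 peak was assigned to Hey1 with a window of 1000 bp or when the NPC list was cut to the length of the ES list.

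Hey2 had H3K27me3 in 3 lists, with 807 bp in wild type ES, 236 bp in wild type NPCs and 699 bp in PCGF5-depleted NPCs. In PCGF5-depleted ES a peak reached to 2454 bp from the start site but its centre lay outside the window, so 0 bp were counted, and 47 bp when any base inside the window was counted. The log2 ratio of PCGF5-depleted to wild type was -3.18 in ES and 1.25 in NPCs. The wild type NPC peak overlapped the downstream wild type ES peak over 220 bp, and the PCGF5-depleted NPC peaks overlapped the wild type NPC peak over 0 bp. All Hey2 peaks ranked in the lower part of their lists, at most at the 34.6th percentile of score. Neither Hey1 nor Hey2 had an H2AK119ub1 peak at the start site.

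**Figure D3:**
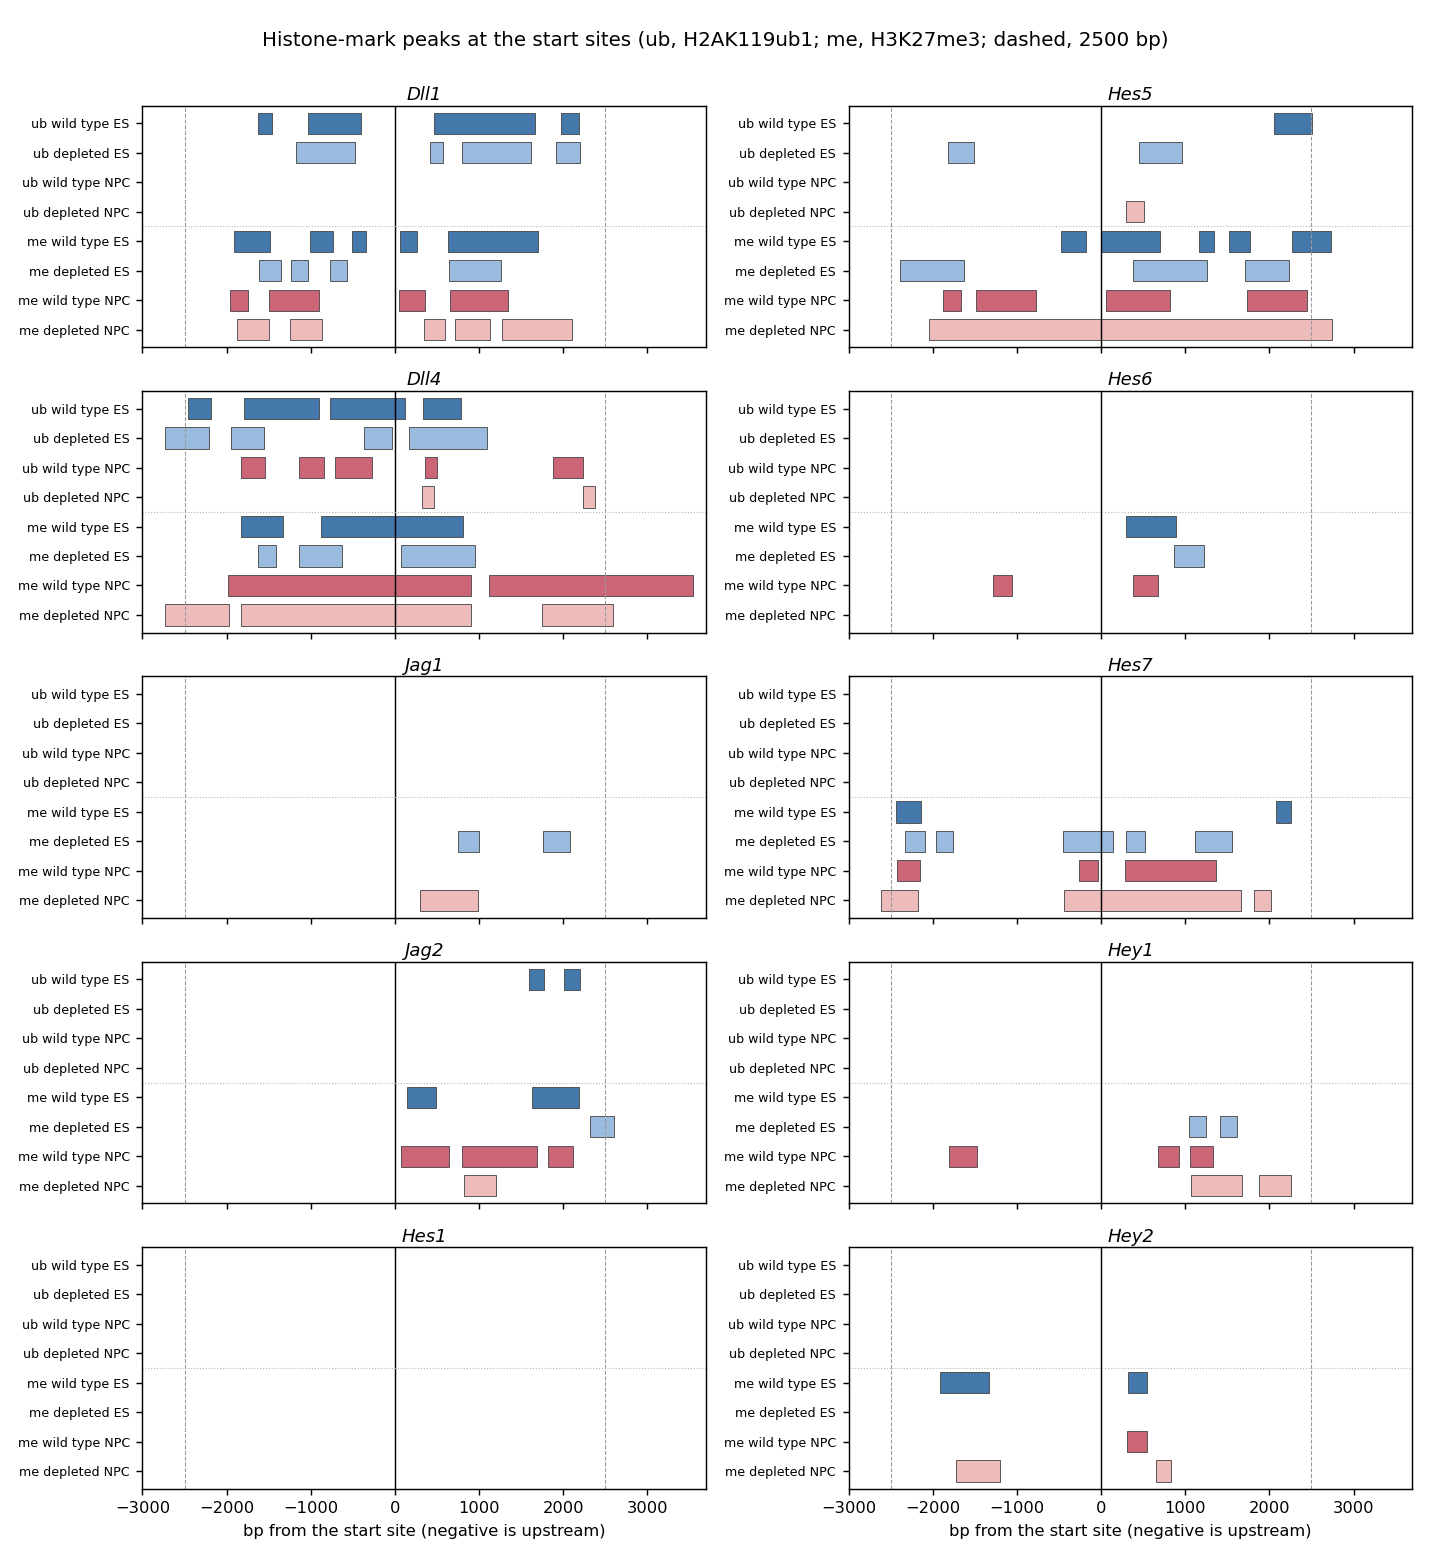
Position of each H2AK119ub1 (ub) and H3K27me3 (me) peak of the 10 genes relative to the start site, in bp along the gene (x axis, negative upstream), 1 row per library and 1 panel per gene, with dashed lines at 2500 bp. The 4795 bp peak of Hes5 in PCGF5-depleted NPCs and the wide NPC peaks of Dll4 cross the start site, all Jag1 and Jag2 peaks lie downstream of it, and the Hes1 panel is empty.

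Between PCGF5-depleted and wild type cells, covered base pairs differed by at least 2-fold at 5 of the 10 genes for H3K27me3 in ES and at 4 in NPCs, and for H2AK119ub1 at 1 in ES and 2 in NPCs. For H2AK119ub1 in ES, 0 genes were higher (3.00% of all genes) and 1 was lower, Jag2 (3.90%). In NPCs 1 was higher, Hes5 (1.87%), and 1 was lower, Dll4 (3.35%). For H3K27me3 in ES, Jag1, Hes7 and Hey1 were higher (4.37% of all genes) and Jag2 and Hey2 lower (5.41%). In NPCs Jag1 and Hey2 were higher (4.37%) and Jag2 and Hes6 lower (6.18%). Both directions were about equally filled in each comparison of H3K27me3. Genes with a peak in few lists can differ 2-fold through 1 small peak, and 9 of the 10 genes had H3K27me3 in at least 1 list while most genes had none, so these counts cannot be read directly against the share of all genes.

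Summed over the 10 genes, the PCGF5-depleted and wild type lists were within 2-fold of each other except for H2AK119ub1 in NPCs. H2AK119ub1 covered 5527 bp in wild type and 4965 bp in PCGF5-depleted ES, a log2 ratio of -0.15 compared with -0.25 for the covered base pairs of the whole lists. In NPCs the sum was 1524 bp in wild type, all of it at Dll4, and 502 bp in PCGF5-depleted cells, a log2 ratio of -1.60 compared with -1.05. For H3K27me3 the sum was 8987 bp in wild type and 8359 bp in PCGF5-depleted ES, a log2 ratio of -0.10 compared with -0.17. In NPCs it was 14470 bp and 16913 bp, a log2 ratio of 0.23 compared with -0.24 for the whole lists, and 6 of the 10 genes were above and 3 below 0. The rise at Hes5 alone, from 2389 to 4795 bp, was about as large as the difference between these NPC sums. The medians of the log2 ratios over the 10 genes were 0.25 in NPCs and -0.21 in ES, with Hes1 at 0 for lack of a peak. Over all genes with a peak in either list they were -0.36 and -0.18, a set without such genes. Over all genes they were 0 at both stages.

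Between NPCs and ES, the 4 genes with H2AK119ub1 in either wild type list and the 3 with it in either PCGF5-depleted list all had log2 ratios below 0, and the other genes had no H2AK119ub1 peak at either stage. For H3K27me3, 5 of the 10 genes were above 0, 3 below and 2 at 0 in wild type cells, and 8 were above, 1 below and 1 at 0 in PCGF5-depleted cells. For H2AK119ub1 in wild type cells, Dll1, Jag2 and Hes5 were at least 2-fold lower in NPCs (4.59% of all genes) and 0 were higher (3.18%). In PCGF5-depleted cells Dll1, Dll4 and Hes5 were lower (4.06%) and 0 higher (1.99%). The summed H2AK119ub1 had a log2 ratio of -1.86 in wild type, where the covered base pairs of the whole lists had -0.09, and of -3.31 in PCGF5-depleted cells, where the whole lists had -0.90. Over all genes with an H2AK119ub1 peak at a start site in either list, the median log2 ratio was -0.96 in wild type and -1.26 in PCGF5-depleted cells, so that lower values in NPCs were not confined to these genes. For H3K27me3 in wild type cells, Dll4, Hes7 and Hey1 were at least 2-fold higher (11.4% of all genes) and Hey2 lower (4.10%). In PCGF5-depleted cells Dll4, Hes5, Hey1 and Hey2 were higher (10.1%) and Hes6 lower (3.45%). The summed H3K27me3 had log2 ratios of 0.69 and 1.02, below those of the whole lists, 1.16 and 1.09. The medians over the 10 genes were 0.16 and 0.72, with 2 and 1 genes at 0 for lack of a peak in either list. Over all genes with an H3K27me3 peak at a start site in either list they were 1.43 and 1.22. That set leaves out genes without a peak, so the medians are not of like sets. Over all genes they were 0.

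**Figure D4:**
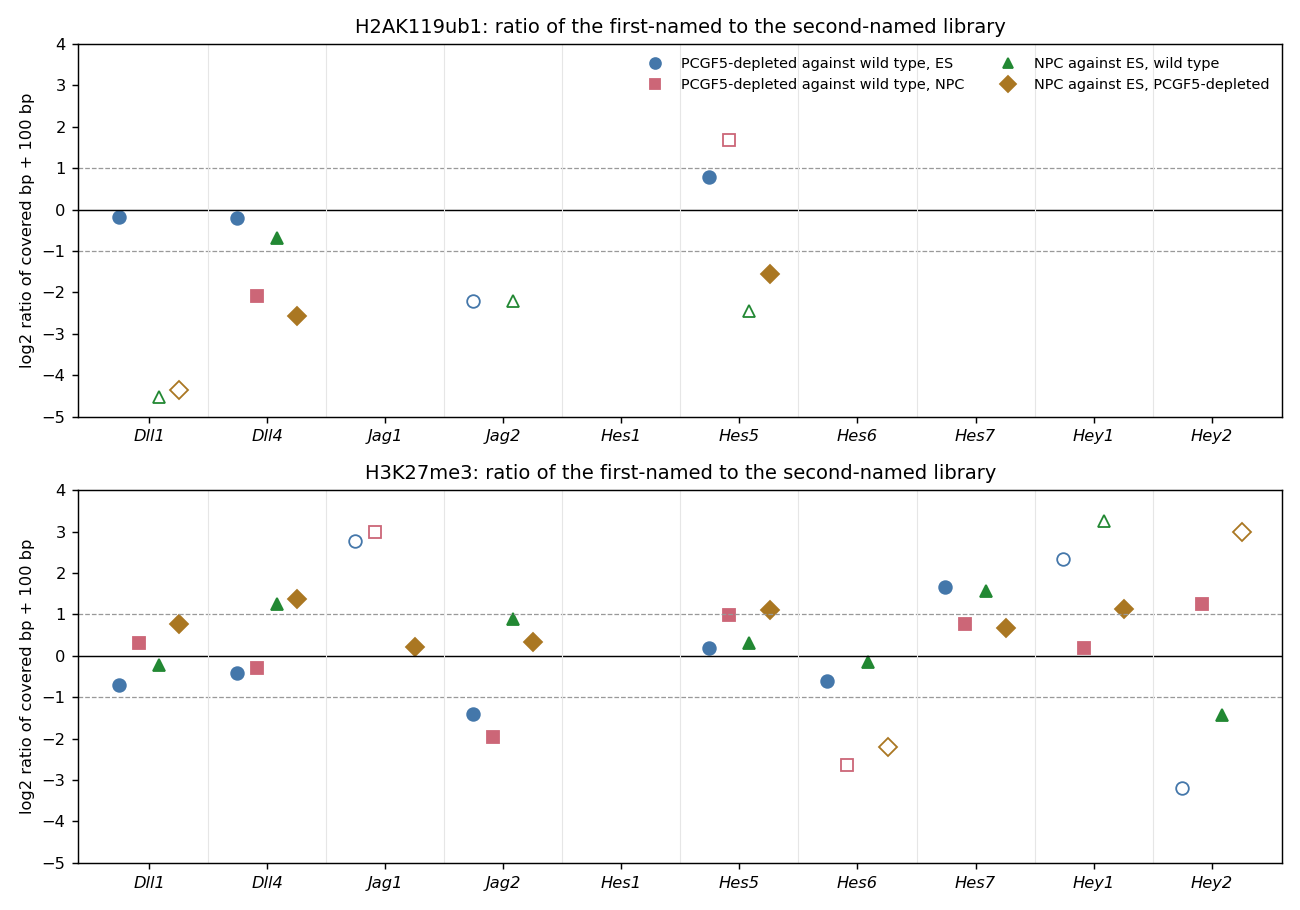
Log2 ratio of covered base pairs plus 100 bp (y axis) for each of the 10 genes (x axis) in 4 comparisons, with H2AK119ub1 in the upper and H3K27me3 in the lower panel. Open symbols mark ratios in which 1 of the 2 lists held 0 bp, dashed lines mark 2-fold, and genes with 0 bp in both lists have no symbol. Jag2 lies below -1 and Jag1 above 1 in both PCGF5-depleted to wild type comparisons of H3K27me3, and all NPC to ES values of H2AK119ub1 lie below 0.

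Where H2AK119ub1 was listed at these genes, H3K27me3 was listed too. All 4 genes with H2AK119ub1 in wild type ES, all 3 in PCGF5-depleted ES, the 1 in wild type NPCs and both in PCGF5-depleted NPCs also had an H3K27me3 peak, compared with 79.8%, 73.3%, 94.9% and 92.6% of all genes with H2AK119ub1 in the same order. H3K27me3 peaks covered 76.0% of the 5527 bp of H2AK119ub1 in wild type ES, 51.0% of the 4965 bp in PCGF5-depleted ES and 100% of the 1524 and 502 bp in the NPC lists. At Dll1 the share was 70.5% in wild type and 41.4% in PCGF5-depleted ES, and at Dll4 83.1% and 46.7%, while at Hes5 it was 54.3% and 84.7%. H3K27me3 stood without H2AK119ub1 at 3, 5, 7 and 6 of the 10 genes in the 4 kinds of cells. Over all 22232 genes, H3K27me3 was listed at 2976, 2872, 3480 and 3434 and both marks at 1187, 971, 1051 and 859. Most genes with H3K27me3 thus had no H2AK119ub1 peak in any of the 4 kinds of cells, so this was not particular to the 10 genes.

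The base pairs common to all 4 H3K27me3 lists were a small part of those covered in any. Dll4 had 1194 bp covered in all 4 lists, 19.6% of the 6100 bp covered in any. The corresponding values were 424 bp (11.9%) at Dll1, 356 bp (6.93%) at Hes5 and 150 bp (4.67%) at Hes7, and Jag2, though listed in all 4, had 0 bp in common. For H2AK119ub1 the only base pairs common to 4 lists were 116 bp at Dll4. Of the H3K27me3 base pairs at the 10 genes, 59.9% to 67.1% lay downstream of the start site, compared with 61.8% to 71.4% for all genes with a single start site. The start base itself lay under H3K27me3 in 2 of 7 genes in wild type ES, 1 of 8 in PCGF5-depleted ES, 1 of 8 in wild type NPCs and 3 of 8 in PCGF5-depleted NPCs, compared with 28.7%, 23.2%, 46.2% and 27.6% of the genes with a peak and a single start site in the same order.

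The genes whose profile over the 8 histone lists was most like the mean of the 10 were Col8a2, Syt12, Emid2, Apc2 and Otop2, with Pearson correlations of 0.996 to 0.989 among 2127 genes that had a start-site peak in at least 4 lists. The 8 points of such a correlation share their libraries and list lengths, and no test was made. All 5 had H2AK119ub1 in both ES lists and 0 bp in both NPC lists, and more H3K27me3 in NPCs than in ES. This pattern follows from how they were picked and is no separate result. The mean is also not the profile of each of the 10 genes, since only Dll1, Dll4, Jag2 and Hes5 had H2AK119ub1 at the start site.

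Start-site peaks were also counted at 41 other genes of the Notch pathway. H3K27me3 was listed at 13, 13, 12 and 12 of them and H2AK119ub1 at 9, 7, 4 and 8, in the order of wild type ES, PCGF5-depleted ES, wild type NPCs and PCGF5-depleted NPCs. The shares of all genes were 13.4%, 12.9%, 15.7% and 15.4% for H3K27me3 and 6.69%, 5.96%, 4.98% and 4.17% for H2AK119ub1. All 3 other family members, Hes2, Hes3 and Heyl, had H3K27me3 in every list. Of the other ligands, Dlk1 and Dlk2 had it in every list and Dll3 in the NPC lists. Of the receptor genes Notch1 to Notch4, H3K27me3 was listed at a start site only at Notch1 in PCGF5-depleted ES (229 bp), and H2AK119ub1 at 0 of the 4 in any list. Among the 9 protease genes, which cut the receptor, 1 had H3K27me3, Aph1c in wild type NPCs.

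Flag-PCGF5 had start-site peaks at 8 of the 41 genes in NPCs (13.7% of all genes) and at 2 in ES (0.787%). In NPCs they were at Notch1 (1198 bp), at Lfng (2631 bp), a fringe enzyme that adds sugars to the receptor, at Numb (1530 bp), an inhibitor of Notch inherited by 1 daughter cell, at Neurl1b (342 bp), which acts in ligand endocytosis, and at the gamma-secretase subunits Psen2 (429 bp), Psenen (2593 bp), Aph1b (742 bp) and Aph1c (710 bp). Aph1b and Aph1c are close copies of each other, so reads may not be assigned to one of them with certainty. In ES the peaks were at Rbpj (243 bp), which encodes the DNA-binding partner of the receptor, and Numb (512 bp). Of the 8 genes with a Flag-PCGF5 peak in NPCs, Lfng, Neurl1b and Aph1c also had H3K27me3 in wild type NPCs.

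Of the 41 genes, the highest log2 ratios of H3K27me3 between PCGF5-depleted and wild type NPCs were those of Nrarp, a Notch-induced inhibitor of the pathway (0 bp in wild type, 1283 bp in PCGF5-depleted), Dtx4, a ubiquitin ligase (0 and 270 bp), and Lfng (1202 and 4507 bp), at 3.79, 1.89 and 1.82. The lowest were those of Neurl1a (1834 and 0 bp), Aph1c (251 and 0 bp) and Hes2 (4517 and 2170 bp), at -4.27, -1.81 and -1.02. In all, 3 of the 41 were higher (4.37% of all genes) and 3 lower (6.18%) by at least 2-fold.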

How the data were processed

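H2AK119ub1, H3K27me3 and Flag-PCGF5 ChIP-seq peak lists of mouse ES and day 6 NPCs were analysed, with 1 library per group as labelled. According to the study's methods, chromatin was digested with micrococcal nuclease for the histone marks and sonicated after double fixation for Flag, whereas the labels give the latter for every sample. The authors trimmed reads, aligned them to mm9 with Bowtie2, removed duplicates and called peaks per library with MACS2 2.1.0 (tool names and version also in the submitters' processing notes). The deposited lists give for each peak its score, its ratio to the local background as a fold, and its p-value and q-value, both as −log10. These values were used only within a list, as percentiles of score, since list length and score depend on depth and background, which are unknown. Peaks equal in all of these values were ordered at random. Percentiles of such peaks, and their place in lists cut by score, are therefore partly arbitrary.

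Peaks were assigned to GENCODE M1 genes with Python 3.11.15 and numpy 2.4.6. A start-site peak had its centre within 2500 bp of a protein-coding start site and was counted whole. Ratios are log2 of covered base pairs plus 100 bp, and 2-fold was the limit for higher or lower. As 1 library stood for each group, no test was made, and shares are set beside those of all 22232 genes. All 86279 peaks lay within NCBIM37 chromosomes. Body counts were checked with bedtools 2.31.1 (0 of 220960 values differed) and start-site counts were tested on simulated data. All 10 genes are named. Of 41 other pathway genes, the receptors, those with a Flag-PCGF5 start-site peak and the 3 highest and 3 lowest NPC ratios of H3K27me3 are named, as are the 5 genes of most similar profile. The 10 genes and all lists were chosen with earlier results of these data known. Alternatives were a 1000 bp window, any base in the window, the higher-scoring 50%, lists of equal length, q-values of at most 0.05, merging within 1000 bp, 1.5-fold and 300 bp added. Input libraries were not used.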

Additional observations from a re-analysis of the deposited data

Results flagged for a closer look

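H3K27me3 at Hey2 lay in opposite directions in the same comparison made in different cells, and these differences were not tested, since each group held 1 library. The log2 ratio of PCGF5-depleted to wild type was -3.18 in ES (807 bp in wild type, 0 bp in PCGF5-depleted) and 1.25 in NPCs (236 bp and 699 bp). The log2 ratio of NPCs to ES was -1.43 in wild type and 3.00 in PCGF5-depleted cells. All of these values share the same 4 lists, and the count of 0 bp in PCGF5-depleted ES rests on a peak whose nearest base lay 2454 bp from the start site. Counted by any base in the window it gave 47 bp. No Hey2 start-site peak ranked above the 34.6th percentile of score in its list, and 0 remained in the higher-scoring 50% of each list.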

How the results depend on the processing

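Of 218 counts of genes recomputed under 8 alternatives, 194 were within 1.5 times the reported count and 24 were not. With a window of 1000 bp, H2AK119ub1 was at 2 of the 10 start sites in wild type ES and H3K27me3 at 5 in PCGF5-depleted ES. Flag-PCGF5 was then at 0 in NPCs. H2AK119ub1 was then higher at 1 and lower at 0 in PCGF5-depleted against wild type ES, and lower at 1 in wild type NPCs against ES. H3K27me3 was then lower at 0 in NPCs against ES, both in wild type and in PCGF5-depleted cells. With the higher-scoring 50%, H2AK119ub1 in PCGF5-depleted NPCs was at 1 start site and 1 body, in PCGF5-depleted ES at 2 bodies, Flag-PCGF5 in NPCs at 1 body, H2AK119ub1 higher at 1 in PCGF5-depleted NPCs against ES and H3K27me3 lower at 1 in PCGF5-depleted against wild type NPCs. With lists of equal length Flag-PCGF5 in NPCs was at 0 start sites and 0 bodies. H2AK119ub1 was higher at 1 in PCGF5-depleted ES with equal lengths, with q-values of at most 0.05 and at 1.5-fold. At 1.5-fold H3K27me3 was lower at 4 in PCGF5-depleted ES and higher at 4 in PCGF5-depleted NPCs. With 300 bp added, 0 were higher for H2AK119ub1 and 1 for H3K27me3 in PCGF5-depleted NPCs. With peaks merged, H3K27me3 was higher at 2 in PCGF5-depleted NPCs against ES. The cause was not tested. No paired analysis was possible because each group held 1 library. Depth is unknown, so small peaks and missing peaks are the least certain values.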
